A study of Rattus norvegicus with 145 samples.

Results

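Described here are 4 rat genes, ENSRNOG00000023148, ENSRNOG00000010694, ENSRNOG00000022419 and ENSRNOG00000003595, out of 32883 genes listed in the deposited tables. They were chosen by measured values, as genes with more RNA in knock-in than in wild-type striatum at 19 months, at 24 months or averaged over ages. The tables give Ensembl identifiers without symbols, and 0 of the 32883 identifiers matched the gene table used here. What each gene encodes is therefore not stated, and neither the huntingtin gene nor markers of cell types were checked. All 4 members were measured in bulk tissue, in which a change in cells of a type and a change in RNA per cell cannot be told apart.

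The libraries came from Long Evans rats that were heterozygous for the Q130 knock-in allele (KI) or wild type (WT). Striatum (63 libraries), cerebral cortex (51) and cerebellum (31) were profiled from 63 animals, 51 of them in more than 1 region. In every region sampled, 5 females and 5 males per genotype were used at 10 months (striatum and cortex only) and at 19 months, and 3 female and 4 male KI rats with 2 female and 2 male WT rats at 24 months. Striatum of 2 and 6 months came from 3 males per genotype and from earlier work. Age, sex and experiment therefore cannot be told apart there. Each age is a separate set of animals, and those of 19 months carry identifiers of another series than the rest. Age and set of animals thus cannot be told apart at the later ages either.

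Huntington's disease is caused by expansion of a CAG repeat in the huntingtin gene, which lengthens a glutamine tract in the protein. Its striatal pathology falls mainly on medium spiny neurons, the GABAergic projection neurons that make up most striatal neurons. Knock-in animals carry the expansion in their own gene and are followed over age, because transcript changes in the striatum of such models build up with time.

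In KI striatum only ENSRNOG00000023148 and ENSRNOG00000003595 had more RNA at 24 than at 10 months. ENSRNOG00000023148 gained 0.51 ± 0.131 log2 units (SE) in KI between those ages, and its WT level changed by -0.26 ± 0.161. ENSRNOG00000003595 gained 3.14 ± 0.423 in KI and 2.04 ± 0.66 in WT, so it had more RNA at 24 than at 10 months in both genotypes, although its WT mean at 6 months (0.162 CPM, 14 reads) was above that at 24 months (0.129). For ENSRNOG00000010694 the KI level was flat, at 0.02 ± 0.14, and the WT level was lower by -0.63 ± 0.176. ENSRNOG00000022419 changed by -0.21 ± 0.198 in KI and by -0.06 ± 0.239 in WT. A higher KI level at 24 than at 10 months thus describes 2 of the 4, and these age changes rest on the libraries that chose the genes. The KI mean of ENSRNOG00000023148 was 57.6 CPM at 2 months, in males of earlier work, and 50.3 at 10 months. Whether KI changed more than WT was not tested.

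ENSRNOG00000023148 was the most abundant member and the one most restricted to striatum. At 2 months its level was 51.1, 57.4 and 62.1 CPM (counts per 1000000 counts of the library, scaled by the TMM method) in the 3 WT libraries and 56.1, 56.7 and 60.1 in the 3 KI libraries. At 6 months the WT libraries held 40.8, 48.5 and 49.7 CPM and the KI libraries 43.6, 45.4 and 47.6. The genotypes overlapped at both ages.

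At 10 months ENSRNOG00000023148 ran from 37.3 to 81.1 CPM in WT (median 47.7) and from 29.4 to 69.3 in KI (median 51.8), again with overlapping libraries. At 19 months the WT libraries ran from 33.9 to 48.6 CPM (median 40.7) and the KI libraries from 47.9 to 76.6 (median 60.5). Of the 10 KI libraries 9 lay above the highest WT library, and 1 lay just below it. That overlap depends on how libraries are scaled: with TMM factors taken within each region the lowest KI library had 47.6 and the highest WT library 47 CPM, and with factors within each region and age 48.7 and 48.4, so the groups then separated by a narrow gap. In TPM (transcripts per 1000000, scaled by transcript length) the lowest KI library had 8.83 and the highest WT library 11.5, and the groups overlapped.

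At 24 months the 4 WT libraries held 37.2, 40.9, 42.4 and 47.6 CPM of ENSRNOG00000023148, and the 7 KI libraries ran from 54 to 98.4 (median 75.5), with no overlap. The KI mean was 1.51 times the WT mean at 19 months (61.4 ± 9.75 against 40.6 ± 4.78 CPM, SD, n = 10 per genotype) and 1.69 times at 24 months (71.2 ± 17.1, n = 7, against 42 ± 4.33, n = 4). The higher KI levels at 19 months therefore came with a WT level below that of 10 months as well as a KI level above it.

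**Figure D1:**
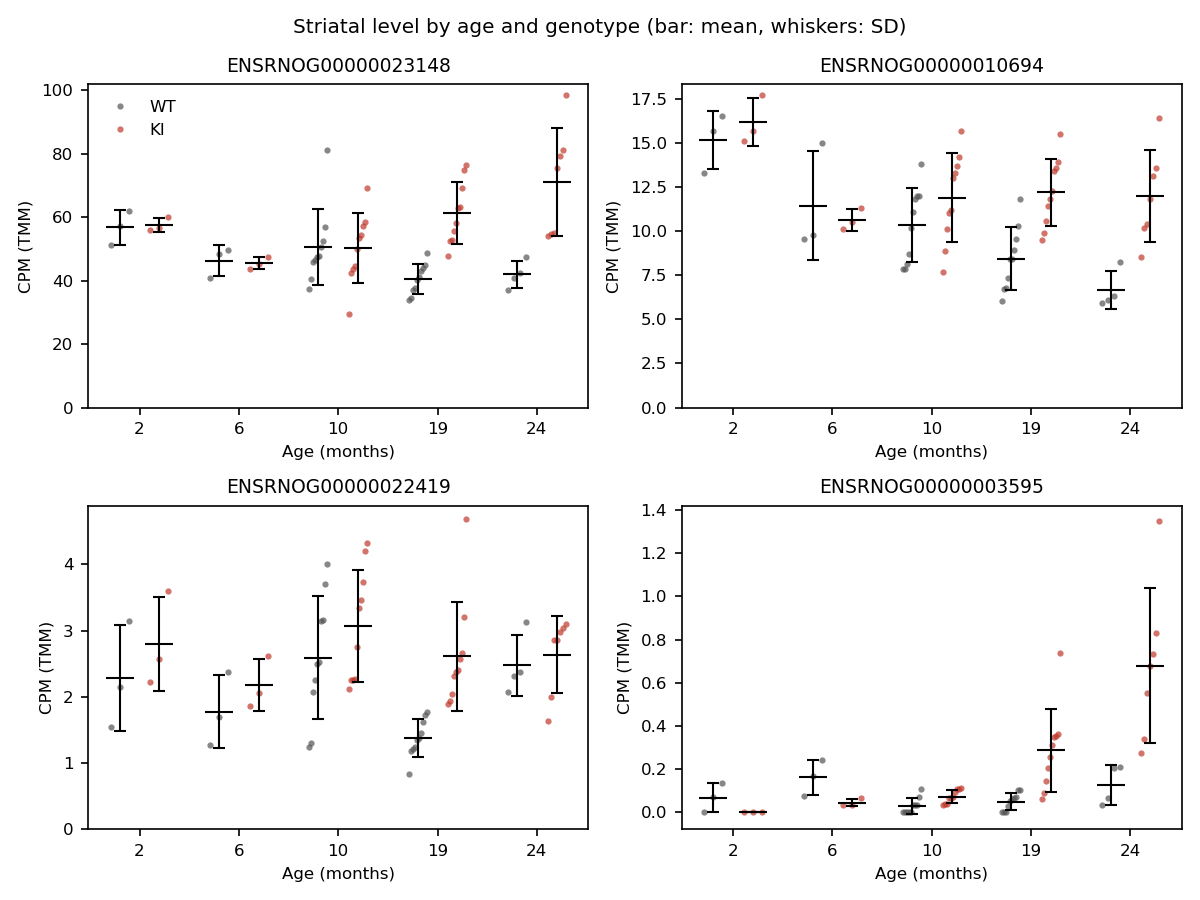
Striatal level (CPM, linear axis) of the 4 genes by age, 1 point per library, WT in grey and KI in red, with the mean as a bar and the SD as whiskers. For ENSRNOG00000023148 the KI libraries of 24 months (54 to 98.4 CPM) lie above all WT libraries of that age, and ENSRNOG00000022419 stands apart at 19 months only.

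The genotype difference of ENSRNOG00000010694 went with lower WT levels at later ages, in separate animals at each age. At 2 months it had 13.3, 15.7 and 16.5 CPM in WT striatum and 15.1, 15.7 and 17.7 in KI. At 6 months the values were 9.55, 9.8 and 15 in WT and 10.1, 10.5 and 11.3 in KI. The genotypes overlapped at both ages.

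At 10 months ENSRNOG00000010694 ran from 7.84 to 13.8 CPM in WT (median 10.7) and from 7.7 to 15.7 in KI (median 12.1). At 19 months it ran from 6.06 to 11.8 in WT (median 8.43) and from 9.48 to 15.5 in KI (median 12), with 5 of 10 KI libraries above the highest WT library. At 24 months the WT libraries held 5.94, 6.07, 6.32 and 8.27 CPM and the KI libraries ran from 8.54 to 16.4 (median 11.8). The groups did not overlap at that age, by a gap that is small beside the range within either group. Mean KI levels were 11.9, 12.2 and 12 CPM at 10, 19 and 24 months, while mean WT levels were 10.3, 8.44 and 6.65.

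ENSRNOG00000022419 separated the genotypes at 19 months and at none of the other ages sampled. It had 1.55, 2.15 and 3.15 CPM in WT and 2.23, 2.57 and 3.6 in KI striatum at 2 months. At 6 months it had 1.27, 1.69 and 2.37 in WT and 1.86, 2.05 and 2.62 in KI. The groups overlapped at both ages, and again at 10 months, when WT ran from 1.24 to 4 (median 2.51) and KI from 2.11 to 4.32 (median 3.04).

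At 19 months WT libraries held 0.838 to 1.77 CPM of ENSRNOG00000022419 (median 1.37) and KI libraries 1.89 to 4.69 (median 2.4), without overlap. In TPM the lowest KI library of that age (1.26) lay just below the highest WT library (1.3), so this separation too depends on the scale. At 24 months the WT libraries held 2.07, 2.32, 2.38 and 3.13 CPM, and KI libraries ran from 1.64 to 3.1 (median 2.86), with none above the highest WT library. The separation at 19 months thus went with a low WT level at that age: on the log2 scale WT changed by -0.91 ± 0.185 (SE) from 10 to 19 months and by 0.84 ± 0.235 from 19 to 24 months, against -0.22 ± 0.179 and 0.01 ± 0.198 in KI.

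ENSRNOG00000003595 was read so rarely that its values are counts of a few reads. At 2 months the WT libraries held 6 reads in all and the KI libraries 0, which allows a KI level of up to 0.0331 CPM, counting error only. At 6 months there were 14 reads in WT and 4 in KI. All 3 KI libraries of 6 months (0.0354, 0.0365 and 0.0656 CPM) lay below all 3 WT libraries (0.0776, 0.167 and 0.241), the opposite direction to later ages. Among all genes tested at 6 months, 7.28% had every KI library below every WT library, and this gene had too few reads to be tested there.

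Reads of ENSRNOG00000003595 numbered 8 in WT and 21 in KI striatum at 10 months, 15 and 88 at 19 months, and 15 and 142 at 24 months. At 19 months WT libraries ran from 0 to 0.104 CPM (median 0.0598) and KI libraries from 0.0634 to 0.739 (median 0.285), with 8 of 10 KI libraries above the highest WT library. At 24 months WT libraries held 0.0327, 0.0662, 0.206 and 0.211 CPM and KI libraries ran from 0.273 to 1.35 (median 0.676), without overlap. The KI mean was 2.60, 5.81 and 5.26 times the WT mean at 10, 19 and 24 months. KI females of 24 months averaged 0.971 CPM (n = 3) and KI males 0.46 (n = 4).

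The striatal contrasts of 10 months and later selected these genes, so their fitted differences are given as a description. On the log2 scale, KI minus WT for ENSRNOG00000023148 was -0.02 ± 0.138 (SE) at 10 months, 0.60 ± 0.0876 at 19 months and 0.76 ± 0.184 at 24 months. For ENSRNOG00000010694 it was 0.20 ± 0.136, 0.54 ± 0.117 and 0.85 ± 0.185. For ENSRNOG00000022419 it was 0.25 ± 0.206, 0.93 ± 0.15 and 0.10 ± 0.211. The estimates of these 3 genes were ordered differently over the ages. Those of ENSRNOG00000023148 and ENSRNOG00000010694 were lowest at 10 and highest at 24 months, and that of ENSRNOG00000022419 was highest at 19 and lowest at 24. Choosing genes by their values at the later ages favors large differences there, and a change of the difference with age was not tested. No age of onset or widening is therefore read from this order. ENSRNOG00000003595 passed the filter on low counts at 24 months (2.34 ± 0.531) and in the average over ages (1.99 ± 0.307), but not at 10 or 19 months alone. It passed through its KI libraries only, since no WT library of these ages had more than 6 reads. Nothing is read from its fitted values.

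The share of genes past an edgeR adjusted p of 0.05 in these contrasts was 0.00654% at 10 months, 0.0196% at 19 months, 0% at 24 months and 0.0492% for the average over ages. The members chosen at 19 months were ENSRNOG00000023148 and ENSRNOG00000022419, the latter just inside the edgeR threshold (adjusted p = 0.0247), and the next gene higher in KI, ENSRNOG00000010694, lay outside it (0.717). In the edgeR average over ages the other values were 0.000393 for ENSRNOG00000003595, 0.000697 for ENSRNOG00000010694, 0.00416 for ENSRNOG00000023148 and 0.291 for ENSRNOG00000022419. Every KI library lay above every WT library for 0% of genes at 10 months, 0.00655% at 19 months and 0.249% at 24 months. Nothing is read from these shares, since the same libraries chose the genes.

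The striatum of 2 and 6 months did not choose the members. Of the 3 members that passed the filter, 0 were called at 2 months, where 0% of all genes were, and 0 at 6 months, where 0.013% were. For ENSRNOG00000023148 KI minus WT was 0.01 log2 units (95% interval -0.14 to 0.17) at 2 months and -0.02 (-0.25 to 0.21) at 6 months. The differences of 0.60 and 0.76 in the older animals came from both sexes and from contrasts that chose the genes. Nothing is therefore read from setting these intervals against them, and a change of the difference with age was not tested. For ENSRNOG00000010694 the difference was 0.09 (-0.13 to 0.31) and -0.10 (-0.49 to 0.29), and for ENSRNOG00000022419 it was 0.29 (-0.32 to 0.90) and 0.31 (-0.31 to 0.92). With 3 males per genotype, the intervals of ENSRNOG00000022419 were wide, and its later differences are not set against them. Complete separation with KI on top occurred for 5.84% of all genes at 2 months and 7.31% at 6 months, and for none of the 4 members.

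**Figure D2:**
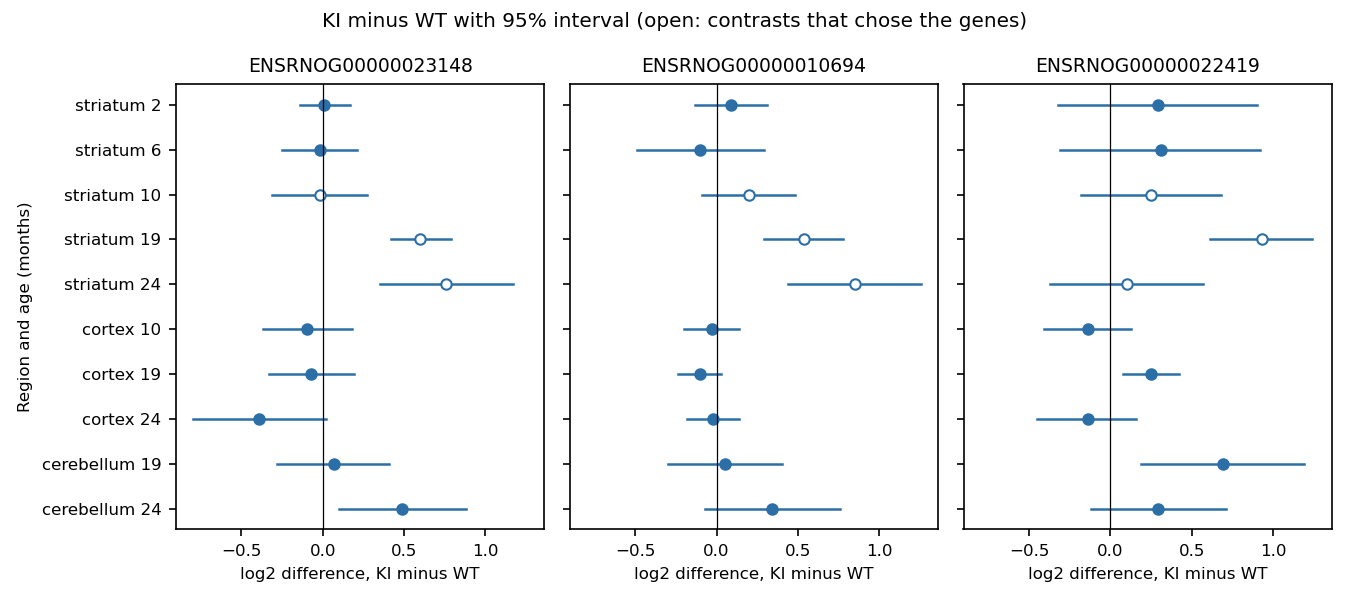
KI minus WT on the log2 scale for the 3 members with enough reads, by region and age in months, as points with 95% intervals from edgeR; open points mark the striatal contrasts that chose the genes. The striatal points of 19 months lie at 0.60, 0.54 and 0.93, and the cortical points all lie between -0.39 and 0.25.

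In cortex 0 of 3 tested members were called at 10, 19 or 24 months or over ages, where 0%, 0%, 0% and 0.00621% of all genes were. For ENSRNOG00000023148 the cortical estimates were below 0 and none was called, with -0.18 log2 units (-0.37 to -0.00) over ages. At 24 months its 4 WT libraries held 7.96, 9.16, 10 and 10.6 CPM and its KI libraries ran from 4.8 to 10.2 (median 6.52), with a log2 difference of -0.39 (-0.80 to 0.02, edgeR adjusted p = 0.765). The differences at 10 and 19 months were -0.10 (-0.37 to 0.18) and -0.07 (-0.33 to 0.19). The striatal differences of 19 and 24 months were among the values that chose the genes, so these intervals are not set against them. The difference between regions was not tested.

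ENSRNOG00000010694 was close to equal in both genotypes of cortex, with differences of -0.03 (-0.20 to 0.14), -0.10 (-0.24 to 0.03) and -0.02 (-0.18 to 0.14) at 10, 19 and 24 months. At 19 months, the age of its striatal separation, ENSRNOG00000022419 ran from 2.88 to 4.16 CPM in WT cortex (median 3.54) and from 3.2 to 4.74 in KI (median 4.12). That difference was 0.25 (0.08 to 0.42) and did not pass after adjustment (edgeR adjusted p = 0.748). At 10 and 24 months it was -0.14 (-0.41 to 0.13) and -0.14 (-0.45 to 0.16). ENSRNOG00000003595 had 16 to 23 reads per genotype at 10 and 19 months and 5 and 10 at 24 months in cortex, with overlapping genotypes throughout.

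In cerebellum 0 of 3 tested members were called at 19 or 24 months or over both ages, against 2.33%, 2.17% and 5.89% of all genes. ENSRNOG00000022419 ran from 0.382 to 1.33 CPM in WT (median 0.803) and from 0.647 to 2.21 in KI (median 1.09) at 19 months. The difference was 0.69 (0.19 to 1.19, edgeR adjusted p = 0.173) there, 0.29 (-0.12 to 0.71) at 24 months and 0.50 (0.13 to 0.87, edgeR adjusted p = 0.117) over both ages. ENSRNOG00000023148 had 3.68, 3.87, 4.53 and 5.11 CPM in WT and 3.4 to 8.12 (median 6.13) in KI cerebellum of 24 months, a difference of 0.49 (0.10 to 0.88, edgeR adjusted p = 0.23). At 19 months its difference was 0.07 (-0.28 to 0.41).

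For ENSRNOG00000010694 the cerebellar differences were 0.05 (-0.30 to 0.40) and 0.34 (-0.07 to 0.76) at 19 and 24 months. At 24 months females averaged 7.14 CPM in KI (n = 3) and 4.05 in WT (n = 2), and males 4.67 (n = 4) and 4.77 (n = 2). The difference was 0.81 in females alone and -0.06 in males alone, and whether the sexes differ was not tested. None of the 3 tested members passed the threshold at either age, and the groups overlapped for each, which was not counted over all genes. Their estimates were above 0 at both ages. So were those of 7509 of 15101 genes at 19 months and of 7641 of 15381 at 24 months, and nothing is read from the signs. ENSRNOG00000003595 had 9 reads in WT and 12 in KI cerebellum at 19 months, and 3 in each genotype at 24 months.

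The members also differed in where they are expressed. In TPM, ENSRNOG00000023148 averaged 9.29 ± 1.33 in WT striatum of 19 months (SD, n = 10), 1.8 ± 0.445 in cortex and 1.67 ± 0.614 in cerebellum. ENSRNOG00000010694 was highest in cortex, at 13 ± 1.86 TPM against 6.4 ± 1.61 in striatum and 4.61 ± 1.25 in cerebellum. ENSRNOG00000022419 followed the same order at a lower level, at 2.45 ± 0.388 TPM in cortex, 0.999 ± 0.232 in striatum and 0.709 ± 0.294 in cerebellum. ENSRNOG00000003595 averaged 0.09 ± 0.0788, 0.0806 ± 0.112 and 0.0506 ± 0.0539 TPM in striatum, cortex and cerebellum, values that do not differ beyond their spread. In WT striatum the order of the members was ENSRNOG00000023148, ENSRNOG00000010694, ENSRNOG00000022419, ENSRNOG00000003595 at both 19 and 24 months. Only ENSRNOG00000023148 was at least 4-fold higher in WT striatum than in both other regions.

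WT cerebellum was compared with WT cortex within the same animals. At 19 months 2 of 3 tested members were lower in cerebellum, ENSRNOG00000010694 by -1.83 ± 0.152 log2 units and ENSRNOG00000022419 by -2.13 ± 0.219 (edgeR adjusted p = 1.95e-07 and 8.17e-07), where 38.5% of all genes were lower. At 24 months all 3 tested members were lower, where 36.2% of all genes were. ENSRNOG00000023148 differed by -0.45 ± 0.21 at 19 months (edgeR adjusted p = 0.0683) and by -1.13 ± 0.0942 at 24 months (edgeR adjusted p = 3.7e-06). Lower levels in cerebellum were thus common among all genes tested.

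**Figure D3:**
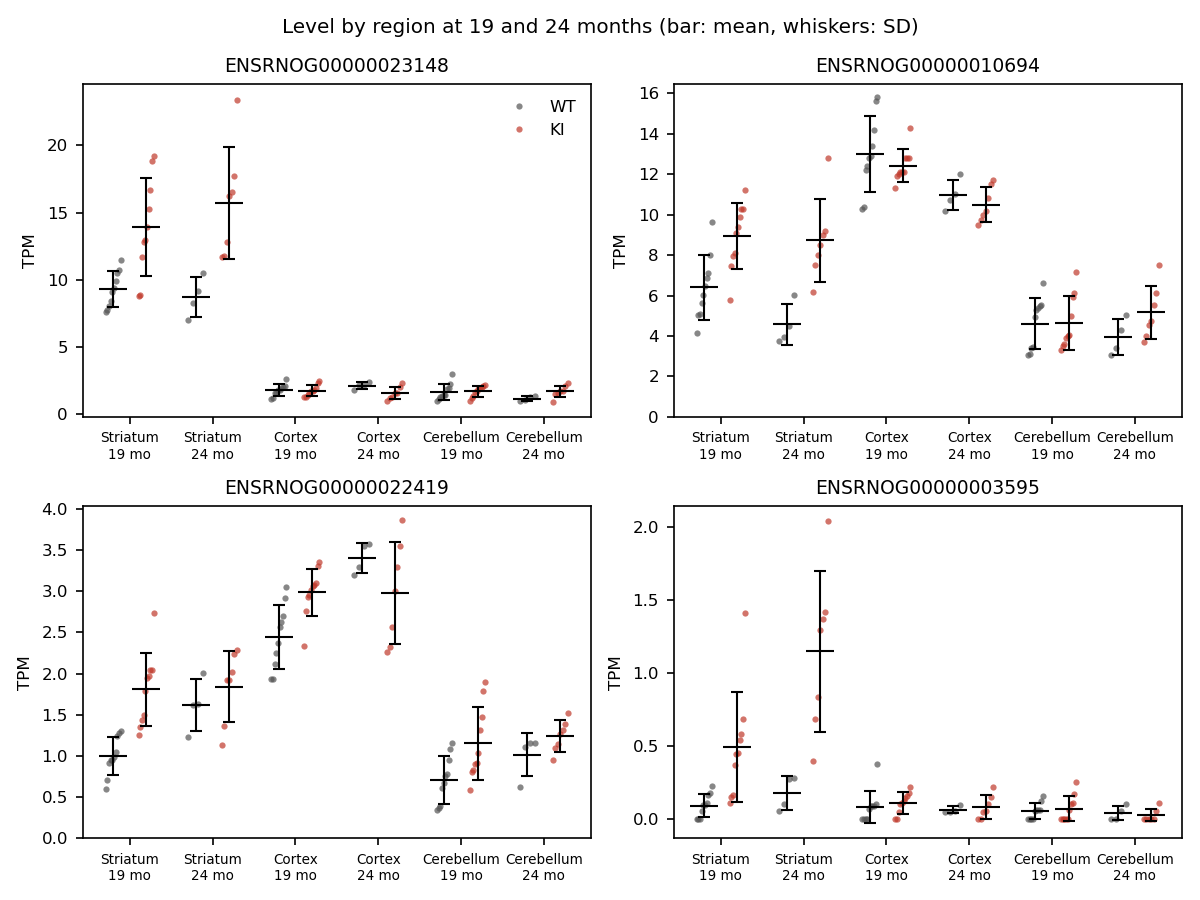
Level per transcript length (TPM, linear axes) of the 4 genes in striatum, cortex and cerebellum at 19 and 24 months, 1 point per library, WT in grey and KI in red, with mean and SD. ENSRNOG00000023148 is high in striatum alone (WT mean 9.29 TPM at 19 months), while ENSRNOG00000010694 is highest in cortex (13 TPM).

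Age in WT animals outside the choosing contrasts called 0 of the 3 tested members. From 2 to 6 months in WT striatum, where 0.318% of genes differed, ENSRNOG00000023148 changed by -0.28 ± 0.11 (edgeR adjusted p = 0.398), ENSRNOG00000010694 by -0.40 ± 0.179 (0.474) and ENSRNOG00000022419 by -0.36 ± 0.331 (0.756). From 10 to 19 months in WT cortex, where 7.09% of genes differed, the changes were 0.10 ± 0.139, 0.16 ± 0.0926 and -0.17 ± 0.112. In WT striatum the means of ENSRNOG00000023148, ENSRNOG00000010694 and ENSRNOG00000022419 were also lower at 19 than at 10 months. Those libraries were among the ones that chose the genes, so these changes were not tested and are not set against cortex. From 19 to 24 months in WT cerebellum, where 1.23% of genes differed, the changes were -0.44 ± 0.219, -0.15 ± 0.158 and 0.55 ± 0.302.

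Sex was not called for ENSRNOG00000023148, ENSRNOG00000010694 or ENSRNOG00000022419 in striatum of 10 to 24 months, where 0.111% of genes were. Male minus female was 0.04 (-0.11 to 0.20) for ENSRNOG00000023148, -0.02 (-0.18 to 0.14) for ENSRNOG00000010694 and -0.08 (-0.31 to 0.15) for ENSRNOG00000022419. For ENSRNOG00000003595 it was -0.52 (-1.07 to 0.04, edgeR adjusted p = 0.759). That gene passed the filter only through its KI libraries, so nothing is read from this value.

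Across the 63 striatal libraries, ENSRNOG00000023148 and ENSRNOG00000010694 moved most alike among the members (Spearman rho 0.652, and 0.388 after the mean of each genotype, age and sex group was removed). No other gene of 16473 was closer to ENSRNOG00000023148, whereas for ENSRNOG00000010694 that gene ranked 5 and the nearest had a rho of 0.667 (0.504 within groups). All other pairs of members had a rho between 0.124 and 0.371. The libraries share ages, sets of animals and the contrasts that chose the genes, and the labels name no batch, so these values are a description.

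RNA of genes enriched in cortex varied between the striatal libraries of 24 months. A cortex-enriched score, the mean log2 CPM of 188 genes at least 4-fold higher in WT cortex of 19 months than in both other regions, ran from -0.129 to 0.143 in the 4 WT libraries. Among the 7 KI libraries it reached 1.224 in male 2, 0.749 in male 1 and 0.41 in female 3. Libraries of 19 months were scored over another list, 196 genes enriched by the same rule in WT cortex of 24 months. On it KI male 5 of 19 months had 0.968, and the other 19 striatal libraries of that age ran from -0.301 to 0.229. The same score over 271 striatum-enriched genes, ENSRNOG00000023148 among them, ran from 2.133 to 2.935 in KI and from 2.686 to 3.076 in WT striatum of 24 months. It was lowest in KI male 2, male 1 and female 3 (2.133, 2.177 and 2.208), and its part in the members' differences was not tested. None of the 4 members is among the cortex-enriched genes, although ENSRNOG00000010694 and ENSRNOG00000022419 had more RNA in cortex than in striatum.

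Male 2, the library of highest score, had the highest level of ENSRNOG00000023148 (98.4 CPM) and of ENSRNOG00000010694 (16.4 CPM). Without males 1 and 2, KI minus WT at 24 months was 0.57 ± 0.127 for ENSRNOG00000023148, 0.77 ± 0.159 for ENSRNOG00000010694, -0.00 ± 0.228 for ENSRNOG00000022419 and 2.34 ± 0.581 for ENSRNOG00000003595. With the score as a covariate, the differences were 0.58 ± 0.15, 0.74 ± 0.181, -0.05 ± 0.206 and 2.44 ± 0.578. With all libraries and no score they were 0.76, 0.85, 0.10 and 2.34 in the same order. This contrast was among those that chose the genes, and the part of cortical RNA in the differences was not tested.

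**Figure D4:**
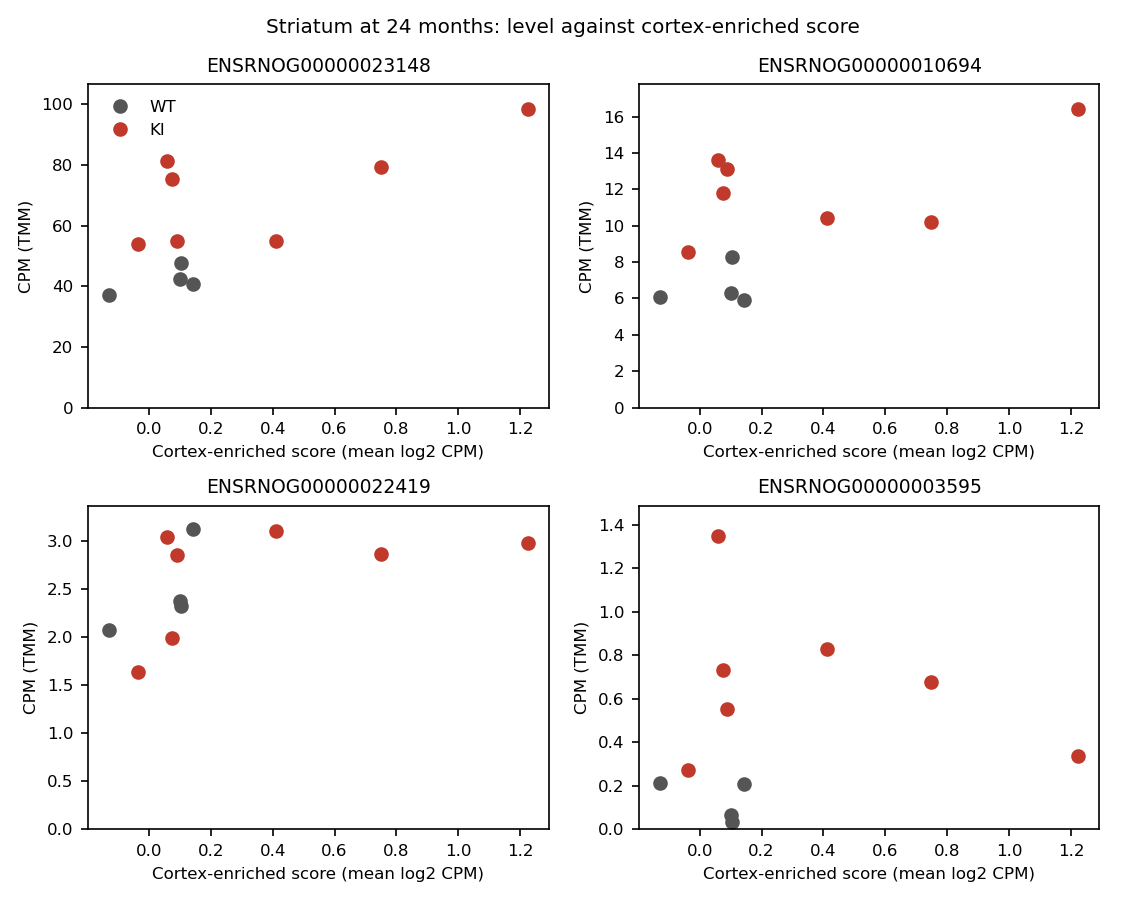
Striatal level at 24 months (CPM, linear axis) of the 4 genes against the cortex-enriched score of the same library, WT in grey and KI in red, 1 point per library. The 2 KI libraries of highest score (1.224 and 0.749) hold 98.4 and 79.4 CPM of ENSRNOG00000023148. Those with scores in the WT range hold 54 to 81.2 CPM, and the part of cortical RNA in the difference was not tested.

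By mean correlation with libraries of the same region and age, 12 of the 145 libraries stood apart, 7 KI and 5 WT, 6 of them striatal. Without those of 19 months (KI female 5, KI male 3 and WT male 4), KI minus WT in striatum was 0.65 ± 0.0955 for ENSRNOG00000023148, 0.49 ± 0.122 for ENSRNOG00000010694 and 0.89 ± 0.168 for ENSRNOG00000022419. The edgeR adjusted p of ENSRNOG00000022419 was then 0.245, on fewer libraries. Without the 24-month library that stood apart (KI male 4), the differences of the 4 members were 0.81, 0.91, 0.17 and 2.44.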

How the data were processed

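Tissue was flash frozen and RNA libraries were made with Illumina protocols, per the labels. The authors deposited estimated counts (8.12% of cells not whole) on a rat reference; which aligner and counter they used is not given in the sources used here. Counts were rounded to whole numbers. The second table deposited by the authors is named FPKM, but every library sums to 1000000, so it was read as TPM. Library totals were 26.7 to 34.5 counts in striatum, in units of 1000000, 28.9 to 47.3 in cortex and 25.6 to 34.4 in cerebellum. Replicates were separate animals.

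Each comparison was fitted over all genes with edgeR 4.0.16 in R 4.3.3 by its robust quasi-likelihood test after TMM scaling and filterByExpr. A sex term was included at ages with females and males, and the animal was a block between regions. A gene was called where its p, adjusted by Benjamini-Hochberg over all genes tested, was under 0.05. The design assumed counts; the files hold estimated counts, and the same test was used. The named genes are the 4 listed identifiers. The members and lists were chosen with earlier results of these data known. Levels are CPM with TMM factors over all 145 libraries. A second scaling, within each region, was tried for the levels after the overlap at 19 months had been seen under the first; the first was kept, and both were reported, together with scaling within each region and age. A level against 0 reads used a floor of 3 counts. The cortex-enriched score used a prior count of 2. Other alternatives were RLE factors, DESeq2 1.42.0, no and strict (1 CPM) count filters, limma-trend 3.58.1 on log2(TPM + 0.1) or + 1 (mean TPM of at least 0.1, or no filter), each sex alone, no sex term, a replicate block, all ages in 1 fit, left-out libraries and the score as a covariate. The fits were tested on simulated data. No sequence is printed, because no table used here pairs these identifiers with one.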

Additional observations from a re-analysis of the deposited data

Results flagged for a closer look

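In 8 of 64 groups of 4 to 10 libraries, 1 library lay far from the others of its group. The rule flags about 1 group in 20 of normally distributed values. That rate was not checked for these levels, and it need not hold where values are counts of a few reads. For ENSRNOG00000023148 the libraries flagged were WT striatum of 10 months, male 4 (81.1 CPM, next 56.9), and KI cortex of 10 months, female 2 (10.2, next 7.69). For ENSRNOG00000010694 they were WT striatum of 24 months, female 1 (8.27, next 6.32), and KI cortex of 24 months, male 4 (16.8, next 14.7). For ENSRNOG00000022419 it was KI striatum of 19 months, female 4 (4.69, next 3.21). For ENSRNOG00000003595 they were KI striatum of 19 months, female 2 (0.739 CPM, 25 reads), WT cortex of 19 months, male 3 (0.237 CPM, 8 reads), and WT cortex of 24 months, female 2 (0.0627 CPM, 2 reads).

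Every KI striatal library of ENSRNOG00000003595 lay above the WT mean at 10, 19 and 24 months and below it at 2 and 6 months. KI was 260%, 581% and 526% of WT at the older ages. At 6 months it was 28.3%, on 14 WT and 4 KI reads. At 2 months KI had 0 reads against 6 in WT, which allows a KI level of up to 48.7% of WT. The difference between ages was not tested.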

How the results depend on the processing

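In the striatal contrasts that chose the genes, 2 of 3 tested members were called at 19 months (0.0196% of all genes), 0 of 4 at 24 months (0%) and 3 of 4 over ages (0.0492%). ENSRNOG00000003595 entered the edgeR fits of 24 months and over ages only through its KI libraries. The count at 19 months was 0 with limma-trend under each pseudocount and filter, in females or males alone and with a replicate block, and 1 without the libraries that stand apart or without the sex term. It was 3 with DESeq2 (ENSRNOG00000010694 added, adjusted p = 0.03) and with all ages in 1 edgeR fit (ENSRNOG00000003595 added, adjusted p = 0.0109). With DESeq2 it was 1 at 24 months. Over ages it was 0 in each sex alone and 2 with limma-trend (ENSRNOG00000023148 at adjusted p = 0.108 to 0.151) or the strict filter. Fewer libraries entered the fits on each sex; for the others the cause was not tested. Same-numbered KI and WT animals did not all deviate together, but this cannot settle whether the numbers pair them. At 2 months same-numbered animals share the stem of their identifier. The replicate block changed no other count at a single age, and it was not run over ages. Leaving out each library in turn gave 0 calls at 24 months, with ENSRNOG00000003595 between 1.90 and 2.91.

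Signs changed in values near 0 that no fit called. For ENSRNOG00000023148 they were -0.04 with the score as a covariate at 2 months, and from -0.06 to 0.08 over fits without 1 library; at 6 months 0.01 with limma-trend and from -0.11 to 0.04 without 1 library; and -0.01 without libraries that stand apart and -0.10 in males in cerebellum of 19 months. For ENSRNOG00000010694 they were 0.11 with the score as a covariate and from -0.20 to 0.13 without 1 library at 6 months; 0.01 and 0.00 with limma-trend and 0.01 without libraries that stand apart in cortex of 10 months; 0.03 without 1 WT library in cortex of 24 months; -0.08 and -0.26 in cerebellum of 19 months without libraries that stand apart and in males; -0.06 at 24 months and -0.15 over ages in males; 0.01 for sex without libraries that stand apart; and from -0.29 to 0.00 for cerebellar age without 1 library. For ENSRNOG00000022419 they were 0.07 at 10 months and 0.04 over ages in cortex of females. In the choosing contrasts, ENSRNOG00000022419 at 24 months was -0.02 in females and -0.05 with the score as a covariate, and ENSRNOG00000023148 at 10 months was 0.12 in males. With limma-trend on log2(TPM + 0.1) the median of all genes moved to 0.106 in striatum of 24 months and to 0.307 and 0.247 between regions at 19 and 24 months. The cause was not tested.

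ENSRNOG00000023148 was called between cerebellum and cortex at 19 months with DESeq2 (-0.47, adjusted p = 0.0229). With a pseudocount of 1 TPM, the striatal differences of ENSRNOG00000003595 shrank to 0.86 at 24 months and 0.45 over ages, and that of ENSRNOG00000022419 at 19 months to 0.48. With 0 to 40 reads per library, counting error limits every value of ENSRNOG00000003595, and with 4 WT libraries at 24 months small differences were not detectable.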
